A study of Mus musculus with 4 samples.

Results

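Nuclear RNA-binding proteins of 3 kinds were followed in mouse liver: the heterogeneous nuclear ribonucleoproteins (hnRNPs), the SR proteins and the cold-inducible proteins Cirbp and Rbm3. Members were the protein-coding genes whose symbol begins with Hnrnp, or is Srsf followed by a number, or is Cirbp or Rbm3. This gave 33 of the 54532 genes in the count table, made up of 20 hnRNP genes, 11 SR genes and the 2 cold-inducible genes. They lie on 16 chromosomes.

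The livers came from C57BL/6 mice, and messenger RNA was counted per gene in 4 libraries. HFD 334 and HFD 335 are labelled HFD, letters that usually stand for a high-fat diet. I3A 303 and I3A 305 are labelled HFD+I3A and so share the HFD of the first group. The labels give I3A only by this abbreviation, with no dose, route or time, and give no age or sex. No liver without HFD was analysed here. The series title names a fatty liver disease model and the respiration of liver mitochondria as its subject.

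hnRNPs coat new transcripts as they leave RNA polymerase II and influence which exons are kept, where transcripts end and how long they last. SR proteins carry an RNA recognition motif and a tail rich in arginine and serine, and mostly promote exon inclusion where hnRNPs oppose it. Both families are known to limit their own amount through exons that bring a premature stop codon and send the transcript to nonsense-mediated decay. Cirbp and Rbm3 are small glycine-rich proteins whose transcripts rise in mild cold and drop in heat, and which bind other messages and affect their stability, translation and polyadenylation. Counts per gene add up all isoforms, so productive transcripts and those bound for decay cannot be told apart here.

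The libraries held 15005668 to 18255623 counts, of which members took 0.254% to 0.284%. Of the 33 members 32 passed the filter on low counts. Their counts ran from 163 to 6554 per library. Srsf12 had 1 count in I3A 305 and 0 in the other libraries, and was not tested. Hepatocyte markers (6 of 6 detected) summed to between 84706 and 93015 CPM (counts scaled to equal library totals) in every library. HFD 335 stood apart by transcripts of other tissues. Its 8 skeletal muscle markers summed to 769 CPM with none at 0, against 0.866 CPM in HFD 334 and 0.876 to 0.959 CPM in the I3A libraries, and outside HFD 335 between 4 and 7 of the 8 were at 0, Ckm and Acta1 in all 3 libraries. Exocrine pancreas markers summed to 117 CPM in HFD 335 and to 0.533 to 1.81 CPM elsewhere. Smooth muscle and mesothelium markers summed to 196 CPM there (4.44 to 6.60 CPM elsewhere) and adipocyte markers to 21.3 CPM (0 to 0.200 CPM elsewhere). In I3A 305 the markers of sinusoidal endothelium summed to 54.0 CPM (158 to 265 CPM elsewhere) and those of stellate cells to 71.4 CPM (246 to 353 CPM elsewhere). In bulk liver, fewer cells of a type and less RNA per cell cannot be told apart. The part of these cells in the results was not tested.

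Across the members, 6 were higher in I3A livers and 1 was lower at an unadjusted p under 0.05 in edgeR's quasi-likelihood test. The higher ones were Rbm3, Cirbp, Hnrnpa1, Hnrnpdl, Hnrnpd and Srsf3, and the lower one was Hnrnpc. Among all 13403 tested genes 6.66% were higher and 6.24% lower by the same rule, against 18.8% and 3.12% of the 32 members. No gene of the table passed an adjusted p of 0.05 in edgeR (0%, 0 of 13403, with 892 higher and 837 lower at an unadjusted p under 0.05), so the words higher and lower below describe measured values and not calls. DESeq2 called 3 members higher, Rbm3, Hnrnpa1 and Cirbp, and 1 lower, Hnrnpc, at an adjusted p under 0.05, where it called 1.81% of genes higher and 1.54% lower. limma-voom gave the same counts of 6 and 1 members at an unadjusted p under 0.05. The log2 fold changes without HFD 335 were 1.63 for Rbm3, 0.77 for Hnrnpa1, 0.73 for Cirbp and -0.47 for Hnrnpc. They were 0.34 for Hnrnpd, 0.39 for Hnrnpdl and 0.31 for Srsf3. Without HFD 335 the log2 fold change had another sign in 3 members, none of them among the 7: Hnrnpa3 (0.090 with all libraries, -0.060 without), Hnrnpul1 (0.061 and -0.059) and Hnrnpll (0.0078 and -0.19).

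The 2 I3A libraries lay above both HFD libraries in 10 of the 32 members (31.2%, against 23.1% of all tested genes) and below both in 5 (15.6%, against 22.5%). The median log2 fold change of members was 0.048, beside -0.010 for all tested genes. It was 0.021 for the hnRNP genes and 0.012 for the SR genes. Within 0.25 of 0 on the log2 scale lay 24 of the 32 members, beside 56.4% of all tested genes. Members also varied little between libraries of a group: the median log2 gap was 0.16 in the HFD pair and 0.11 in the I3A pair, against 0.19 in each pair over all tested genes. Neither this gap nor the share within 0.25 was compared with genes of like level. The smallest count of a tested member was 163, while the filter on all genes used a minimum of 10. The HFD gap ran mostly one way, since HFD 334 exceeded HFD 335 in 29 of 32 members, while I3A 303 exceeded I3A 305 in 16. How many of all tested genes run the same way was not counted, so this may not be particular to the members.

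**Figure D1:**
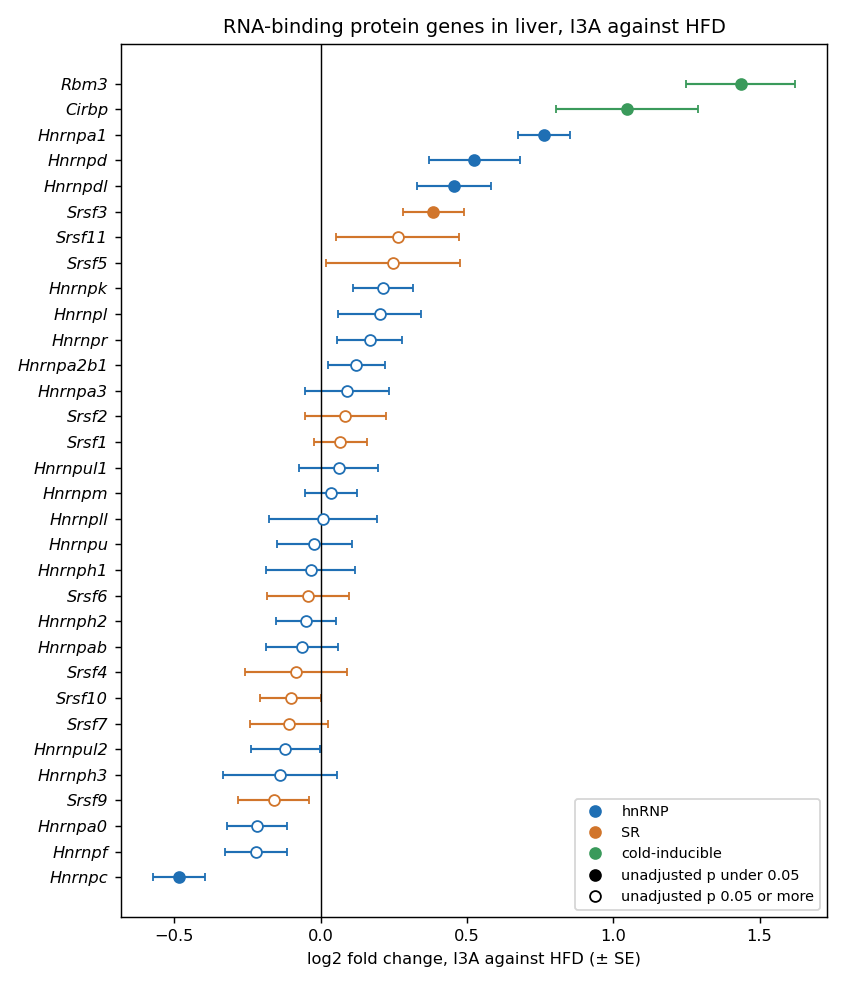
Log2 fold change of each tested member, I3A against HFD, with its standard error, ordered by size and coloured by family. Filled points had an unadjusted p under 0.05. Rbm3 (1.44), Cirbp (1.05) and Hnrnpa1 (0.76) lie farthest to the right and Hnrnpc (-0.48) farthest to the left, with most other members near 0.

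Rbm3 differed most among the members. It encodes a cold-inducible protein that binds messages and ribosomes and is known to protect cells in hypothermia (chromosome X, 8138975 to 8145880, minus strand). Its level was 17.7 CPM in HFD 334, 22.8 in HFD 335, 47.9 in I3A 303 and 61.8 in I3A 305. Both I3A livers were more than 2-fold above either HFD liver. The I3A mean was 2.71-fold that of HFD, with means of 20.3 ± 3.61 and 54.8 ± 9.86 CPM (SD, n = 2; log2 fold change 1.44 ± 0.19, SE; edgeR adjusted p = 0.145; DESeq2 adjusted p = 4.51e-07). The edgeR adjusted p ranged from 0.030 to 0.45 when single libraries were left out, with log2 fold changes from 1.24 to 1.63, and it was 0.063 without HFD 335.

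Cirbp, the other cold-inducible gene, encodes a stress-responsive protein known to bind the messages of the circadian clock and to shift their polyadenylation sites (chromosome 10, 80165985 to 80172786, plus strand). It measured 16.2 CPM in HFD 334, 9.89 in HFD 335, 26.2 in I3A 303 and 27.6 in I3A 305. The I3A livers were close to each other and above both HFD livers, and the lower HFD value was that of the library with muscle transcripts. Means of 13.0 ± 4.47 and 26.9 ± 0.951 CPM (SD, n = 2) gave a 2.07-fold higher level (log2 fold change 1.05 ± 0.24, SE; edgeR adjusted p = 0.244; DESeq2 adjusted p = 0.0131). Without HFD 335 the log2 fold change was 0.73 (edgeR adjusted p = 0.208), and without HFD 334 it was 1.46 (edgeR adjusted p = 0.0107), in a range of adjusted p from 0.0107 to 0.864 over the 4 left-out libraries. Summed over both genes, cold-inducible transcripts made up 33.9 and 32.7 CPM in the HFD libraries and 74.1 and 89.4 CPM in the I3A libraries. Per kilobase of gene length, Rbm3 stood at 0.605, 1.28, 1.01 and 1.24 times the level of Cirbp in HFD 334, HFD 335, I3A 303 and I3A 305, so the balance between both genes did not separate the groups.

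A sequence long known from the promoter of Cirbp is the mild cold response element TCCCCGCC, which Sp1 can bind. It was searched on both strands in the 250 bases before each start in the RefSeq table of build GRCm38.p6. The search covered 30 of the 33 members, and Rbm3, Hnrnpll and Hnrnpul2 were not searched. It occurred in 4.64% of 32851 windows of all genes and in 4 of the 43 windows of members, those of Cirbp, Hnrnpa0, Hnrnpf and Srsf7. Of these, Hnrnpa0 and Hnrnpf measured lower and Srsf7 close to level in I3A livers. A match is only a description of letters in a window. The 2 sequences below show the Cirbp window that holds the element, in capitals, and the window of Hnrnpa1, the hnRNP gene with the largest difference, which holds none. The Cirbp sequence stops where the first overlapping annotated exon begins. Both are given 5′ to 3′ on the plus strand.
Cirbp, chr10:80167589-80167777, intron of a longer annotated transcript: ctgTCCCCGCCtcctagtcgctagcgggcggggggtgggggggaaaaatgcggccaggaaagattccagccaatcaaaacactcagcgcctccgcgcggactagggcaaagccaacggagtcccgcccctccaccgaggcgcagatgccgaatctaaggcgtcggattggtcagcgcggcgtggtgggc
Hnrnpa1, chr15:103240147-103240396, intergenic: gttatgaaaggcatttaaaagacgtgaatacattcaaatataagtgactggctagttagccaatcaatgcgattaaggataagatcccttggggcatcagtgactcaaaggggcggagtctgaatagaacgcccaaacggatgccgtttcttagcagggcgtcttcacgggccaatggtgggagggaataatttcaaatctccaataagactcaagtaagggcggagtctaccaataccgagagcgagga

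The element ended 239 bases before the RefSeq start that its Cirbp window precedes. Another Cirbp window, chr10:80167921-80168170, held no match to it. Windows of members were rich in G and C (median 68.0%, against 52.4% over all windows) and in CpG (median 23 against 6 sites). The Hnrnpa1 window departed from this, with 46.0% G and C and 11 CpG sites. Windows of other genes of like level were not compared, so this richness may not be particular to the members. The heat shock motif GAANNTTC, which is its own reverse complement, occurred in 4 member windows, of Hnrnpa2b1, Hnrnpf, Hnrnpl and Srsf9, and in 6.69% of all windows. Its outward form TTCNNGAA occurred in 1 member window, of Hnrnpa2b1, and in 7.17% of all windows.

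Among the 20 hnRNP genes 3 were higher and 1 lower at an unadjusted p under 0.05 in edgeR (15.0% and 5.0%, against 6.66% and 6.24% of all tested genes). DESeq2 called Hnrnpa1 higher and Hnrnpc lower, where it called 1.81% and 1.54% of genes. Hnrnpa1, an abundant shuttling hnRNP that silences exons by binding UAG-containing motifs (chromosome 15, 103240432 to 103246692, plus strand), measured 59.7 and 60.2 CPM in HFD 334 and 335. It reached 103 CPM in I3A 303 and 100.5 CPM in I3A 305. The gap between the groups was thus far wider than the gap within either. A gap between only 2 libraries is an uncertain measure of spread, and a small one favours a small p. Means of 60.0 ± 0.356 and 102 ± 1.95 CPM (SD, n = 2) correspond to a 1.70-fold higher level (log2 fold change 0.76 ± 0.090, SE; edgeR adjusted p = 0.145; DESeq2 adjusted p = 2.38e-05). With single libraries left out the log2 fold change stayed between 0.76 and 0.78.

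Hnrnpc differed in the other direction. Its product forms tetramers that measure RNA length and bind uridine tracts, where it keeps U2AF65 away from cryptic exons (chromosome 14, 52073377 to 52104028, minus strand). It measured 94.4 CPM in HFD 334, 96.4 in HFD 335, 68.8 in I3A 303 and 67.5 in I3A 305. Again the libraries of a group nearly coincided, with I3A below HFD. Means of 95.4 ± 1.44 and 68.2 ± 0.944 CPM (SD, n = 2) put the I3A level 1.40-fold lower (log2 fold change -0.48 ± 0.089, SE; edgeR adjusted p = 0.200; DESeq2 adjusted p = 0.0308). Left-out libraries gave log2 fold changes from -0.49 to -0.47. Per kilobase of gene length Hnrnpa1 stood at 0.868 and 0.857 times the level of Hnrnpc in HFD 334 and 335, and at 2.06 and 2.04 times in I3A 303 and 305. This pair was chosen after its values were seen, so the ratio is a description, but it does not depend on how libraries are scaled.

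Hnrnpd and Hnrnpdl are paralogs that sit 54.6 kilobases apart on the same strand of chromosome 5. Hnrnpd, known as AUF1, binds AU-rich elements and speeds the decay of short-lived messages. It measured 34.4 CPM in HFD 334, 26.0 in HFD 335, 42.5 in I3A 303 and 44.4 in I3A 305 (log2 fold change 0.52 ± 0.15, SE; edgeR adjusted p = 0.304; DESeq2 adjusted p = 0.187). The I3A libraries were above both HFD libraries, while HFD 334 lay nearer to them than HFD 335 did. Without HFD 335 the log2 fold change was 0.34.
Hnrnpdl, which also binds AU-rich elements, measured 48.0 CPM in HFD 334, 43.7 in HFD 335, 68.3 in I3A 303 and 57.5 in I3A 305 (log2 fold change 0.46 ± 0.12, SE; edgeR adjusted p = 0.290; DESeq2 adjusted p = 0.175). Its groups did not overlap either, and the I3A libraries were farther apart than the HFD libraries. Neither paralog had an unadjusted p under 0.05 without HFD 335 (Hnrnpdl then at 0.39), nor had Hnrnpd without I3A 305 (0.49) or Hnrnpdl without I3A 303 (0.34).

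**Figure D2:**
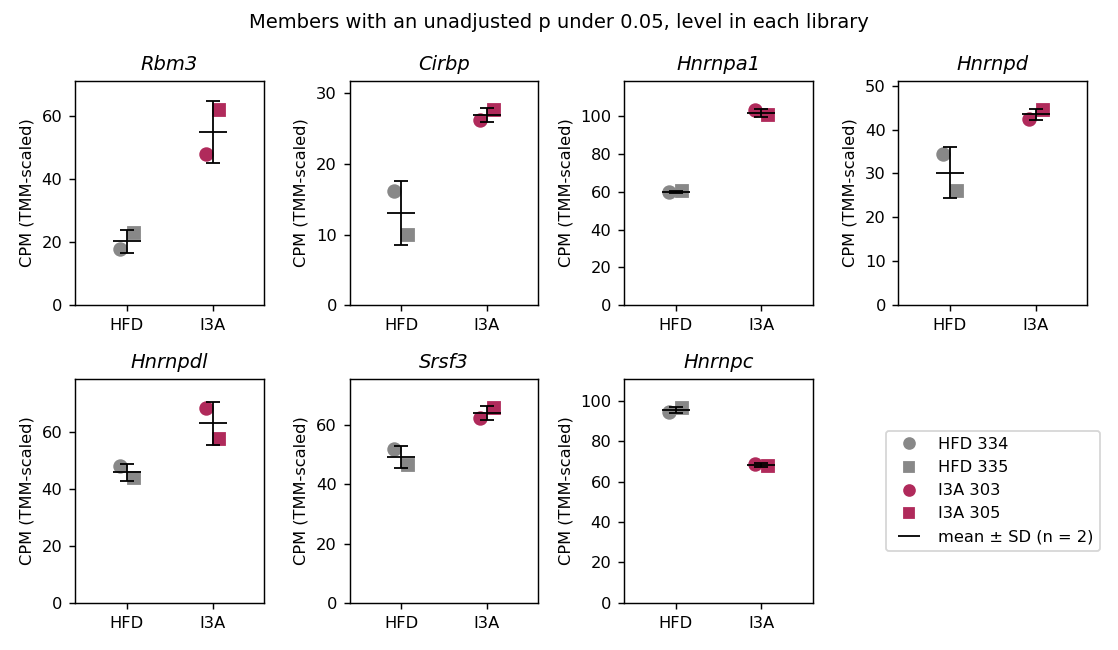
Level (TMM-scaled CPM) of the 7 members with an unadjusted p under 0.05 in each library, with group means and SD (n = 2). Axes start at 0. The libraries of a group nearly coincide for Hnrnpa1 (59.7 and 60.2 against 103 and 100.5 CPM) and Hnrnpc (94.4 and 96.4 against 68.8 and 67.5 CPM), and lie farther apart for Rbm3 and for Cirbp in HFD.

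The other hnRNP genes lay closer to level. Hnrnpf and Hnrnpa0 were lower without reaching an unadjusted p of 0.05. Hnrnpf binds runs of guanines; it measured 99.7 and 90.0 CPM in HFD 334 and 335 and 77.8 and 84.9 CPM in I3A 303 and 305 (log2 fold change -0.22 ± 0.11, SE; 95% interval -0.48 to 0.042). Hnrnpa0, an intronless member that binds AU-rich elements, measured 87.1 and 79.5 CPM in the HFD libraries and 69.0 and 74.1 CPM in the I3A libraries (log2 fold change -0.22 ± 0.10, SE; 95% interval -0.47 to 0.035). Both genes had non-overlapping groups. When libraries were scaled by their totals alone, both had an unadjusted p under 0.05, with log2 fold changes of -0.31 for Hnrnpf and -0.31 for Hnrnpa0, but that scaling also moved the median of all genes to -0.10.

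Hnrnpk, which binds cytosine-rich stretches of RNA and DNA, measured 205 CPM in HFD 334, 183 in HFD 335, 222 in I3A 303 and 228 in I3A 305 (log2 fold change 0.21 ± 0.10, SE; 95% interval -0.044 to 0.47; 0.13 without HFD 335). Hnrnpa2b1, the reader of several RNA sorting motifs, measured 357 and 337 CPM in HFD 334 and 335 and 375 and 381 CPM in I3A 303 and 305 (0.12 ± 0.097, SE). In both genes the I3A libraries were slightly above the HFD libraries. Hnrnpab, close to Hnrnpd in sequence, measured 135, 118, 112 and 130.1 CPM in HFD 334, HFD 335, I3A 303 and I3A 305, with overlapping groups (-0.064 ± 0.12, SE). Hnrnpa1 therefore differed from its relative Hnrnpa2b1 in size of change: it stood at 0.349 and 0.373 times the level of Hnrnpa2b1 per kilobase in HFD 334 and 335 and at 0.576 and 0.551 times in I3A 303 and 305, a pair chosen after its values were seen.

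A further 11 hnRNP genes were tested without reaching an unadjusted p of 0.05. They were Hnrnpa3, the G-tract binders Hnrnph1, Hnrnph2 and Hnrnph3, the CA-repeat binder Hnrnpl and its relative Hnrnpll, the exon repressor Hnrnpm, Hnrnpr, the nuclear scaffold protein Hnrnpu, and its relatives Hnrnpul1 and Hnrnpul2. Together with Srsf1 and Srsf4 these 13 genes had log2 fold changes from -0.14 (Hnrnph3) to 0.20 (Hnrnpl). The groups overlapped in 11 of them, all but Hnrnpr and Srsf1, where I3A lay above HFD. Over all tested genes the groups overlapped in 7298 of 13403. The 13 genes are what remained after members with the smallest unadjusted p or the highest level were taken out. That choice favours small differences and overlap. Hnrnpm was the steadiest, at 94.6, 91.5, 94.3 and 96.3 CPM in HFD 334, HFD 335, I3A 303 and I3A 305 (95% interval of the log2 fold change -0.19 to 0.26). The log2 fold change of Hnrnpl was 0.41 without HFD 334, with an unadjusted p under 0.05, and 0.030 without HFD 335.

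Of the 10 tested SR genes 1 was higher and 0 were lower at an unadjusted p under 0.05 in edgeR. Among all tested genes 6.66% were higher and 6.24% lower by that rule. DESeq2 called 0 of the SR genes, where it called 1.81% of genes higher and 1.54% lower. Srsf3, the smallest SR protein and one that hepatocytes are known to need for maturation and metabolic function (chromosome 17, 29032628 to 29043373, plus strand), measured 51.7 CPM in HFD 334, 46.5 in HFD 335, 62.5 in I3A 303 and 65.7 in I3A 305. Both I3A livers exceeded both HFD livers by a margin wider than the gap in either group. Means were 49.1 ± 3.72 and 64.1 ± 2.29 CPM (SD, n = 2), a ratio of 1.31 (log2 fold change 0.38 ± 0.10, SE; edgeR adjusted p = 0.286; DESeq2 adjusted p = 0.241). Srsf3 had no unadjusted p under 0.05 without HFD 335 (log2 fold change 0.31) or without I3A 305 (0.34), and reached 0.48 without HFD 334. Srsf7, the SR protein nearest to Srsf3 in binding preference, measured 28.3, 26.3, 27.4 and 23.2 CPM in HFD 334, HFD 335, I3A 303 and I3A 305, with overlapping groups (log2 fold change -0.11 ± 0.13, SE).

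Srsf5 and Srsf11 differed more between libraries than between groups. Srsf5, an SR gene known to respond to insulin and growth signals in liver, measured 179 CPM in HFD 334, 139 in HFD 335, 228 in I3A 303 and 150.5 in I3A 305 (log2 fold change 0.25 ± 0.23, SE; 95% interval -0.32 to 0.81). The arginine-serine protein Srsf11 measured 73.5, 52.9, 86.9 and 64.8 CPM in the same order (0.26 ± 0.21, SE). In both genes I3A 303 was the highest library and HFD 335 the lowest. Srsf5 had an unadjusted p under 0.05 without I3A 305 (log2 fold change 0.51) and log2 fold changes of -0.064 without I3A 303 and 0.075 without HFD 335. Srsf11 stood at 0.53 without HFD 334, with an unadjusted p under 0.05, and at 0.046 without HFD 335.

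Srsf9 and Srsf10 were slightly lower in I3A livers, with groups that did not overlap. Srsf9 measured 28.0 and 24.9 CPM in HFD 334 and 335 and 23.0 and 24.3 CPM in I3A 303 and 305 (log2 fold change -0.16 ± 0.12, SE). Srsf10, which represses splicing when heat shock removes its phosphates, measured 36.4 and 34.8 CPM in the HFD libraries and 34.3 and 32.1 CPM in the I3A libraries (-0.10 ± 0.10, SE). Neither gap exceeded 0.2 on the log2 scale. Srsf2, which promotes exon inclusion and stays in the nucleus, measured 65.8, 63.8, 77.1 and 60.3 CPM in HFD 334, HFD 335, I3A 303 and I3A 305, and Srsf6 measured 113, 101, 116 and 92.5 CPM in that order, both with overlapping groups (log2 fold changes 0.084 ± 0.14 and -0.043 ± 0.14, SE).

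Levels of different genes were compared as CPM per kilobase of the gene length in the table. This length counts every annotated exon, so genes with long, rarely used exons come out low. Averaged over the 4 libraries, Hnrnpa2b1 (55.1 CPM per kilobase), Hnrnpab (44.5) and Hnrnpk (32.4) led the hnRNP genes and together held 34.6% of the summed hnRNP level. Srsf5 (43.7 CPM per kilobase), Srsf2 (22.6) and Srsf6 (22.0) led the SR genes with 57.8% of the summed SR level. Hnrnpf and Hnrnpa0 stood side by side at 28.9 CPM per kilobase each. Cirbp and Rbm3 averaged 7.67 and 7.99 CPM per kilobase, in the range of the weaker SR genes. The lowest tested members were Hnrnpll (2.35) and Hnrnpr (1.58), the latter with 22199 bases of annotated exons. Summed over each family, hnRNP transcripts stood at 1958 ± 155 (HFD) and 2037 ± 13.4 CPM (I3A) and SR transcripts at 622 ± 66.6 and 676 ± 101 CPM (SD, n = 2), differences of 4.06% and 8.63% that lie within the spread of the libraries.

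**Figure D3:**
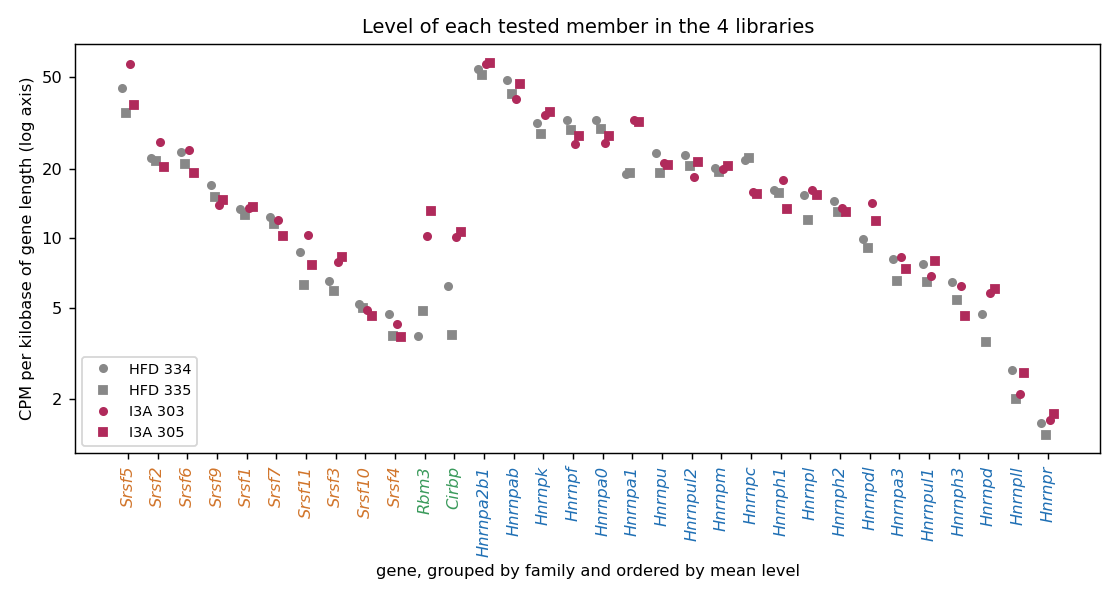
Level of each tested member in the 4 libraries as CPM per kilobase of gene length, on a log axis, with genes grouped by family and ordered by mean level. Hnrnpa2b1 (55.1) and Srsf5 (43.7) are the highest of their families. The 2 groups separate widely for Rbm3 and Cirbp and overlap for most other genes.

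Several members have near-identical copies in the genome, mostly processed pseudogenes, and the labels do not say how reads mapping to several places were handled. A transcript of another gene matched a member at 95% identity or more over at least 150 bases for 14 of the 33 members. Hnrnpa3 had 35 such genes, whose counts came to 163% of its own, so its level in particular is uncertain. The copies of Hnrnpa1 (9 genes) held 8.39% of its counts, and those of Rbm3 (4 genes) held 7.57%. Cirbp, Hnrnpd and Hnrnpab had none. With the copies added, Rbm3 measured 18.7, 24.4, 52.4 and 66.0 CPM in HFD 334, HFD 335, I3A 303 and I3A 305 (log2 fold change 1.46 ± 0.18, SE). Hnrnpa1 with its copies measured 65.7, 65.6, 111 and 109 CPM in that order (log2 fold change 0.74 ± 0.089, SE). This alternative was chosen after seeing the data.

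Exons of 4 members overlap a gene whose counts exceed 10% of their own in the GENCODE M21 annotation: Hnrnpab with Phykpl, Hnrnph3 with Rufy2, Hnrnpm with March2, and Srsf2 with Mettl23 and Mfsd11. All but March2 lie on the opposite strand. None of the 7 members with an unadjusted p under 0.05 is among these 4. The same annotation lists 300 transcripts for the 33 members, of which 38 are marked for nonsense-mediated decay. Such transcripts are listed for 21 members. Among these are Rbm3, Cirbp, Hnrnpa1, Hnrnpd, Hnrnpdl and Srsf3, and also Hnrnpu, Hnrnpk and Srsf4, which had larger unadjusted p. Hnrnpc has none listed. A link between this annotation and the differences was not tested.

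Related genes of RNA processing were taken from 6 lists with 127 tested genes, of which 6 were higher and 0 lower at an unadjusted p under 0.05 in edgeR. By the same rule 6.66% of all tested genes were higher and 6.24% lower, larger shares than in the 6 lists together. The median log2 fold changes of the lists ran from -0.060 to 0.067. The lowest was that of nonsense-mediated decay with the exon junction complex (0 of 15 genes). SR-related proteins had the highest (1 of 21, Tra2b). Among 25 hnRNP-type proteins with other symbols and their partners 4 were higher, Rbmx, Pcbp3 and Pspc1 among them. Rbmx, also known as hnRNP G, measured 12.6 and 11.6 CPM in the HFD libraries and 18.8 and 18.1 CPM in the I3A libraries (log2 fold change 0.61 ± 0.14, SE). Pspc1, a protein of nuclear paraspeckles, averaged 5.88 CPM (HFD) and 9.54 CPM (I3A). Pcbp3 had only 5 to 24 counts per library. The splice site activator Tra2b measured 34.0 and 36.2 CPM in HFD 334 and 335 and 41.0 and 43.9 CPM in I3A 303 and 305 (log2 fold change 0.28 ± 0.10, SE).

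Core spliceosome genes had a median log2 fold change of -0.0081, with 1 of 40 higher (2.5%, against 6.66% of all tested genes). This was the Sm protein gene Snrpe, at 4.69 and 9.04 CPM in HFD 334 and 335 and 13.3 and 15.3 CPM in I3A 303 and 305. Kinases and the import receptor of SR proteins had a median of 0.051. Their groups overlapped in all 9 genes, Clk2, Srpk1 and Srpk2 among them, where 7298 of the 13403 tested genes overlapped. Other splicing regulators had a median of -0.042 with 0 of 17 past an unadjusted p of 0.05, Rbm5, Celf1 and Celf2 coming nearest. In the list of nonsense-mediated decay the nearest were Rbm8a, Smg9 and Smg8.

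The heat shock list holds chaperones, co-chaperones and the transcription factor gene Hsf1. Chaperone transcripts as a rule move opposite to those of Cirbp and Rbm3 with temperature. In I3A livers 15 of 15 genes of the list were lower. Of these, 11 had an unadjusted p under 0.05 in edgeR (73.3%, against 6.24% of all tested genes). The median log2 fold change of the list was -0.58, beside -0.010 for all tested genes. That this list is lower was already known when it was chosen. Hspb1 measured 78.0 and 101 CPM in HFD 334 and 335 and 19.4 and 24.0 CPM in I3A 303 and 305, and Hsph1 and Hspa4l were lower with it (log2 fold changes -0.88 and -0.80). The circadian clock list, to which messages bound by Cirbp belong, had a median log2 fold change of -0.34. At an unadjusted p under 0.05 in edgeR 1 of its 14 genes was higher and 1 lower (7.14% each, against 6.66% and 6.24% of all tested genes). They were Arntl (4.30 and 4.49 CPM in HFD 334 and 335, 5.85 and 12.4 CPM in I3A 303 and 305) and Hlf (73.0, 56.1, 52.0 and 45.0 CPM in that order). Body temperature and time of sampling are not given in the labels, and their part in these values was not tested.

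**Figure D4:**
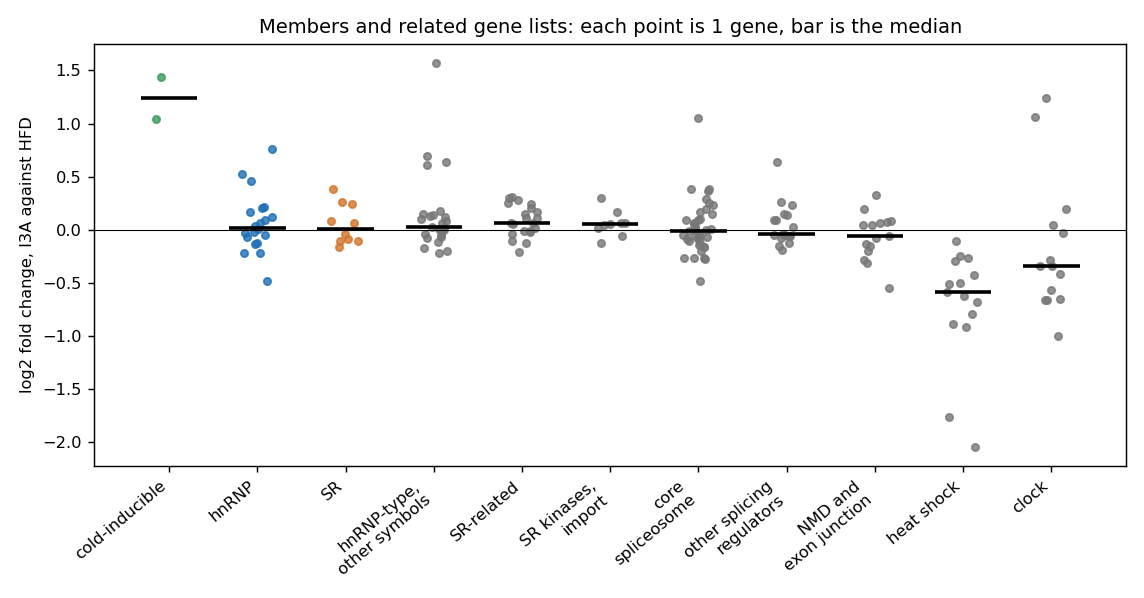
Log2 fold change, I3A against HFD, of every tested gene in the 3 member families (coloured) and 8 related lists (grey), with a bar at each median. The cold-inducible pair lies above 1, the hnRNP and SR medians lie at 0.021 and 0.012, and the heat shock list lies below 0 throughout with a median of -0.58.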

How the data were processed

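Liver RNA was extracted with Trizol and made into libraries with a NEBNext Ultra kit, per the labels' protocols. Per the submitters' processing notes, the tools were HISAT2 and featureCounts 1.5.0-p3, with GRCm38 as the mouse build. Strand setting, treatment of multi-mapping reads, release of the annotation and version of HISAT2 are given by no source used here. What the authors deposited is a table of raw counts, with 1 column for each of 4 libraries and further columns for symbols, positions and gene length. Positions are those of the table, and 31 of the 33 members have the same position in GENCODE M21, an annotation of that build. For 30 of them the deposited gene length equals the union of exons there.

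Libraries were grouped by their titles, with 2 in each group. The labels do not say that each comes from its own animal, so tests measure the spread between libraries. The test was that of edgeR 4.0.16 (R 4.3.3) on all genes: filterByExpr with a minimum of 10 counts (13403 genes), TMM scaling, a quasi-likelihood fit with group as its only term, 2-sided tests and Benjamini-Hochberg adjustment over all tested genes. CPM are scaled by TMM except in marker sums, which use library totals. SE is the log2 fold change divided by the root of the F statistic, and 95% intervals use its t quantile. With 2 against 2, an exact permutation test cannot go below p = 0.333. DESeq2 1.42.0 and limma-voom (limma 3.58.1) were alternatives, beside other scalings and filters, protein-coding genes alone and each library left out. A DESeq2 share is of the 10025 genes with an adjusted p. Similar transcripts were found with blastn 2.17.0 among GENCODE M21 transcripts, and promoter sequences come from RefSeq.

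The members and gene lists were chosen with earlier results of these data known. Values per library are given for Rbm3, Cirbp, Hnrnpa1, the 6 members of each family with the smallest unadjusted p and the 3 with the highest level per kilobase, and of each related list the 3 genes with the smallest unadjusted p are named. Further genes were named where a count of 5 or fewer fell outside this rule or where a feature was singled out after values were seen. The values of 1 gene under this rule are not reported here.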

Additional observations from a re-analysis of the deposited data

How the results depend on the processing

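No paired analysis was possible because the groups share no replicate numbers. At an unadjusted p under 0.05, 6 members were higher and 1 lower with RLE or upper-quartile scaling, both filters and protein-coding genes alone. DESeq2, limma-voom and adding near-identical copies left the same counts. Scaling by library size gave 6 and 3, where it put 4.31% of all tested genes higher and 9.92% lower. In the main setting these shares were 6.66% and 6.24%. Member counts with single libraries left out, given next, rest on 1 library in 1 group and are a description only. With single libraries left out the counts ranged from 3 to 8 higher and stood at 1 lower in each, and the median log2 fold change of members ranged from -0.057 (without HFD 335) to 0.13 (without HFD 334). In edgeR 0 of all genes had an adjusted p under 0.05 (892 higher and 837 lower at an unadjusted p under 0.05), and 0 under 0.1 or in limma-voom, against 619 with no filter on low counts, 335 in DESeq2 and 0 to 343 with single libraries left out. The cause of these moves was not tested. Without HFD 334, Cirbp and Rbm3 passed in edgeR (adjusted p = 0.0107 and 0.0301). With no filter Rbm3, Hnrnpa1 and Cirbp passed (edgeR adjusted p = 4.72e-05, 0.00209 and 0.00671). Of 19 named members 5, all with small differences, changed sign in at least 1 setting. With single libraries left out, log2 fold changes ranged from -0.18 to 0.057 for Hnrnpab, from -0.086 to 0.25 for Srsf2, from -0.064 to 0.51 for Srsf5, from -0.20 to 0.11 for Srsf6 and from -0.21 to 0.0032 for Srsf7, and Srsf2 stood at -0.0018 with library size scaling. The smallest count of a tested member was 163. Precision is limited with 2 libraries per group, and the parts of depth and of spread between libraries were not told apart.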

Other observations

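The following genes were picked after their values were seen and carry no test of their own. The 4 near-identical pseudogene copies of Rbm3 were together higher in I3A livers, at 0.976 and 1.64 CPM in HFD 334 and 335 and 4.57 and 4.24 CPM in I3A 303 and 305. They share sequence with Rbm3 and so are not a separate measurement. Gm48583 on chromosome 13 had 9 and 13 counts in the HFD libraries and 40 and 39 in the I3A libraries, and Rbm3-ps on chromosome 1 had 3 and 7 against 16 and 18.

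Gm7964 on chromosome 7 is annotated as a processed pseudogene near-identical to Hnrnpk and had 451 to 638 counts per library. It measured 41.5 and 34.2 CPM in HFD 334 and 335 and 29.0 and 35.0 CPM in I3A 303 and 305, whereas Hnrnpk itself was slightly higher in I3A livers. With its copies added, Hnrnpk stood at 248, 218, 251 and 264 CPM in that order (log2 fold change 0.15). Gm6793 on chromosome 8, listed as protein-coding and near-identical to Hnrnpa3, measured 31.9 to 38.2 CPM, where Hnrnpa3 measured 35.4 to 44.8 CPM.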
